A study of Mus musculus with 6 samples.

Results

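The kinesin genes of RAW264.7 cells were examined as a family. Members were all protein-coding rows of the deposited expression table whose gene name begins with Kif and a digit, 39 of 21970 protein-coding genes and of 56748 genes in all. They were divided by their best known work into 12 mitotic kinesins, 13 transport kinesins and 14 others, which act in cilia, control microtubule ends or have no settled role. The name rule leaves out kinesins with other names, such as Cenpe and Kifc1, which are described after the members.

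Kinesins are motor proteins that use ATP to walk along microtubules or to take their ends apart. Transport kinesins carry vesicles, endosomes, lysosomes and mitochondria, mostly towards the cell periphery, and in macrophages this traffic serves lysosome spreading and podosomes. Mitotic kinesins build the spindle, move chromosomes and organise the midzone at which the cell divides, and many of their genes are expressed mainly in G2 and M phase.

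RAW264.7 is a proliferating mouse macrophage-like cell line, without further treatment named in the labels. All cells had been infected with lentivirus, either with the control vector (3 libraries, named for GFP) or with a vector carrying Fbxw11 and a GFP marker, pMSCV-Fbxw11-pGk-GFP (3 libraries), and were sorted before RNA extraction. Fbxw11 encodes an F-box protein that selects substrates for a ubiquitin ligase. The title of the series names macrophage polarization as the setting. The sources used here do not describe the control vector beyond the name GFP, the gate of the sort, or whether libraries of one group stem from separate infections. The p-values therefore cover the spread among these 6 libraries alone, and that spread may be technical.

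Values are FPKM, fragments per kilobase of gene length scaled to library size by the authors, and between 16191971 and 18951653 reads per library lay behind them. Fbxw11 itself stood at 35.8, 36.5 and 36.0 FPKM in the control libraries and at 274, 272 and 268 FPKM in the Fbxw11 libraries. Differences were tested with limma on log2(FPKM + 1) over the 10898 genes whose mean over all libraries reached 1 FPKM, and "rose" and "fell" are used only for a Benjamini-Hochberg adjusted p under 0.05 over all of them. In that test 9.24% of genes changed, of which 506 genes (4.64%) fell and 501 (4.6%) rose in the Fbxw11 libraries. The split of calls depended on scaling, with 653 falls and 323 rises on the TPM scale and 691 and 381 over plain read sums. The third library of each group stood apart from the other 4 on a component holding 23.7% of the variance. All 9 macrophage markers checked, such as Cd68 and Csf1r, were above the filter. Their summed FPKM was 4415 to 4581 in control and 4899 to 5031 in Fbxw11 libraries. Neuron markers summed to 0.185 to 0.251 FPKM in the controls and 0.195 to 0.312 FPKM under Fbxw11, and ciliated cell markers to 1.14 to 1.47 and 0.796 to 1.49 FPKM. The neuron markers Rbfox3, Snap25 and Nefl and the ciliated cell marker Dnah5 were listed at 0, and 0 of 6 neuron and 0 of 6 ciliated cell markers passed the filter.

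Of the 39 kinesin genes, 24 passed the filter on low values, 11 mitotic, 10 transport and 3 others. In the Fbxw11 libraries 8 of the 24 fell and 0 rose, against 4.64% and 4.6% of all genes tested. The 8 were 7 mitotic kinesins (Kif11, Kif23, Kif4, Kif2c, Kif20a, Kif15 and Kif20b) and Kif2a. At an unadjusted p under 0.05 there were 13 lower and 0 higher members, against 11.8% and 12.8% of all genes tested. On recovered reads voom called 12 members lower and 0 higher, and over all genes it called 1039 lower (9.53%) and 520 higher (4.77%), a split further towards falls than that of limma. The groups did not overlap, with the Fbxw11 libraries lower, for 13 of the 24 members and higher for 0, where 15.5% and 15.6% of all tested genes did so. By sign alone 20 of 24 members were lower, and 49.1% of all tested genes. The median log2 fold change was -0.50 over the 11 mitotic kinesins, -0.04 over the 10 transport kinesins and 0.00 over all genes tested. Since the members were chosen with earlier results of these data known, these counts and medians describe the family and were not tested as a list.

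Spindle poles are separated by Kif11, the tetrameric motor also called Eg5, which slides antiparallel microtubules apart. Kif11 was measured at 9.09, 9.06 and 9.31 FPKM in the control libraries and at 5.69, 6.10 and 6.22 FPKM in the Fbxw11 libraries. All Fbxw11 libraries were lower than all controls. The mean fell from 9.15 ± 0.137 to 6.004 ± 0.281 FPKM (SD, n = 3), 34.4% lower, with a log2 fold change of -0.54 (SE 0.0442, limma adjusted p = 0.00153). Kif15, which shares the work of keeping the spindle bipolar, stood at 4.52, 4.53 and 4.48 FPKM in the controls and 2.65, 3.004 and 3.07 FPKM under Fbxw11. Its control libraries lay close together and again did not overlap with the others (log2 fold change -0.50, SE 0.0577, limma adjusted p = 0.00440). Kif11 lies on the plus strand of chromosome 19 at 37376403 to 37421859 and Kif15 on the plus strand of chromosome 9 at 122951046 to 123018733 (GRCm38, GENCODE M21). No other annotated gene shares exon bases with either.

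Chromosome arms are moved and compacted by the chromokinesins Kif4 and Kif22, which bind chromatin. Kif4 was measured at 5.90, 5.86 and 6.14 FPKM in the control libraries and at 3.69, 3.89 and 4.17 FPKM in Fbxw11 libraries, a fall of 34.4% (log2 fold change -0.50, SE 0.0522, limma adjusted p = 0.00335). Kif4 lies on chromosome X at 100625737 to 100727214 (plus strand). Of its annotated exon bases, 15.1% overlap Pdzd11 on the opposite strand, and the strand setting of the counting was not known. Pdzd11 stood at 16.4 ± 0.697 FPKM in the controls and 16.9 ± 0.908 FPKM under Fbxw11 (SD, n = 3). Kif22 stood at 4.20, 3.73 and 4.38 FPKM in the control libraries and at 3.48, 2.71 and 2.49 FPKM in Fbxw11 libraries. The groups did not overlap, but the Fbxw11 libraries were spread and the difference missed the threshold (29.5% lower, log2 fold change -0.40, SE 0.104, limma adjusted p = 0.0662). Leaving out 1 library at a time, Kif22 passed in 1 of 6 fits (without Fbxw11 library 1, log2 fold change -0.50, limma adjusted p = 0.0303), and the other 5 gave adjusted p of 0.111 to 0.179. Without both libraries numbered 3 its log2 fold change was -0.28 (limma adjusted p = 0.208).

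Microtubule ends at kinetochores and asters are the substrate of Kif2c, Kif18a and Kif18b. Kif2c, the depolymerase MCAK that corrects wrong attachments, was at 4.36, 4.94 and 4.77 FPKM in the control libraries and at 2.80, 2.80 and 2.9996 FPKM in Fbxw11 libraries. That is 38.9% lower (log2 fold change -0.56, SE 0.0578, limma adjusted p = 0.00335), the lowest log2 fold change among the tested members. Kif18a, which damps the movement of chromosomes at the metaphase plate, was at 1.70, 1.74 and 1.39 FPKM in the control libraries and at 0.999, 1.13 and 1.18 FPKM in Fbxw11 libraries. Kif18b, which shortens astral microtubules, was at 2.45, 2.83 and 2.87 FPKM in the control libraries and at 2.22, 1.69 and 1.94 FPKM in Fbxw11 libraries. For neither of the Kif18 genes did the groups overlap, yet both missed the threshold (log2 fold change -0.31, SE 0.0844, limma adjusted p = 0.0734 for Kif18a, and -0.34, SE 0.0873, adjusted p = 0.0648 for Kif18b). Kif2b, the remaining mitotic member, had 0 reads throughout, which leaves room for an expected count of up to 3 reads in each library by counting error alone.

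Cytokinesis is served by Kif23, Kif20a, Kif20b and Kif14. Kif23 forms the centralspindlin complex with Racgap1 and bundles midzone microtubules. Kif23 lies on the minus strand of chromosome 9 at 61915905 to 61946774. It was at 5.02, 5.02 and 4.71 FPKM in the control libraries and at 3.19, 2.86 and 3.07 FPKM in Fbxw11 libraries, 38.2% lower (log2 fold change -0.55, SE 0.0537, limma adjusted p = 0.00279). Kif20a, which brings the Aurora B complex to the midzone, was at 3.94, 4.29 and 3.97 FPKM in the control libraries and at 2.31, 2.56 and 2.61 FPKM in Fbxw11 libraries, 38.7% lower (log2 fold change -0.54, SE 0.0597, limma adjusted p = 0.00399). Cdc23, whose exons on the opposite strand overlap 29.3% of the exon bases of Kif20a, stood at 4.63 ± 0.323 and 4.53 ± 0.156 FPKM (SD, n = 3). Both Kif23 and Kif20a were separated between groups by more than the range within either group.

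Kif20b, needed for the last step of abscission, was at 6.29, 5.41 and 5.24 FPKM in the control libraries and at 3.66, 3.45 and 3.57 FPKM in Fbxw11 libraries. Control library 1 was the highest of the 6, and the mean was 37.0% lower in the Fbxw11 libraries (log2 fold change -0.54, SE 0.0688, limma adjusted p = 0.00629). Kif14, a motor of the midbody that binds citron kinase, was at 1.61, 1.39 and 1.59 FPKM in the control libraries and at 1.12, 1.04 and 1.04 FPKM in Fbxw11 libraries. Its groups did not overlap (30.3% lower), and the limma test did not reach the threshold (log2 fold change -0.29, SE 0.0736, adjusted p = 0.0593).

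**Figure D1:**
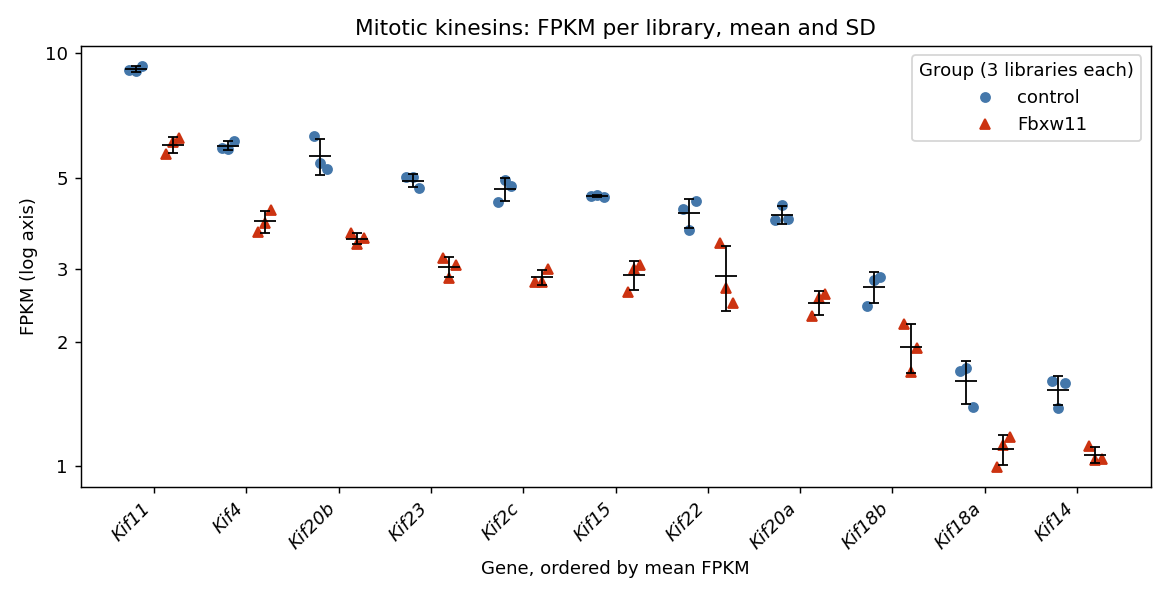
FPKM of the 11 tested mitotic kinesins (log axis) in each of 3 control (circles) and 3 Fbxw11 (triangles) libraries, with the mean and SD in black. For each of the 11 genes every Fbxw11 library lies under every control library, from Kif11 (9.15 and 6.004 FPKM) down to Kif14 (1.53 and 1.07 FPKM).

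In every one of the 11 tested mitotic kinesins, then, the Fbxw11 libraries lay under the controls, and 7 passed the test. The ratio of mean FPKM (Fbxw11 over control) ran from 0.611 for Kif2c to 0.718 for Kif18b. The 4 that missed the threshold, Kif14, Kif18a, Kif18b and Kif22, had ratios of 0.697, 0.684, 0.718 and 0.705. Of these, Kif14, Kif18a and Kif18b were the least abundant tested mitotic members. With a pseudocount of 0.1 FPKM in place of 1, the log2 fold changes of Kif14, Kif18a, Kif18b and Kif22 were -0.48, -0.51, -0.46 and -0.50, and none of the 4 passed (limma adjusted p = 0.0672, 0.0802, 0.0670 and 0.0681). On recovered reads voom, which differs from that fit in model and scaling as well, called all 11, with log2 fold changes of -0.55 for Kif14, -0.58 for Kif18a, -0.53 for Kif18b and -0.55 for Kif22 (adjusted p = 0.00254, 0.00380, 0.0174 and 0.006645). Kif14 also passed the limma test on the TPM scale (adjusted p = 0.0447) and over plain read sums (adjusted p = 0.0472). Among the 4880 tested genes with a mean between 1.30 and 7.58 FPKM, the span of the mitotic kinesins, 5.23% fell, and their median log2 fold change was -0.02.

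Promoter sequences of the members were read because genes of G2 and M phase often carry a cell cycle homology region (CHR), a short element bound by the MuvB-containing repressor complex DREAM and by its activating counterparts, together with CCAAT boxes bound by NF-Y. RefSeq windows of 250 bases before to 50 after a transcription start (GRCm38.p6) were found for 31 members, 19 of them tested. Of the tested members, Kif20a, Kif5a, Kif5b, Kif13b and Kif21b had no match. Positions are given from the RefSeq start, which lay inside the GENCODE gene span for several genes, such as Kif2c, Kif14 and Kif4. For Kif2c, on the minus strand, the window reached up to 117179022 and the gene up to 117182639. Bases just after the start were found in a GENCODE transcript of the gene for 29 of 35 windows. The windows of Kif11, Kif23 and Kif2c were not among these. The 120 bases before the start are shown for 3 mitotic kinesins that hold the hexamer close to the start and for 2 abundant transport kinesins. Capitals mark the CHR hexamer TTTGAA or its reverse complement and CCAAT or its reverse complement. The Kif11 stretch is chr19:37376262-37376381 on the plus strand, Kif15 chr9:122950961-122951080 plus, Kif22 chr7:127042421-127042540 minus, Kif3b chr2:153291296-153291415 plus and Kif1c chr11:70700428-70700547 plus, each written 5′ to 3′ on the gene's strand.
Kif11: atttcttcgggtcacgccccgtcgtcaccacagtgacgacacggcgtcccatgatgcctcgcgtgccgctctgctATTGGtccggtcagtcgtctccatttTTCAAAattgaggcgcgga
Kif15: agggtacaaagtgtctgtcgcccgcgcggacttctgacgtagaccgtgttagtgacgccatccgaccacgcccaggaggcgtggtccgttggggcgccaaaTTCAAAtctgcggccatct
Kif22: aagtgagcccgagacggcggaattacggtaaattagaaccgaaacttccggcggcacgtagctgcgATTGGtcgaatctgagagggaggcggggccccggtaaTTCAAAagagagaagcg
Kif3b: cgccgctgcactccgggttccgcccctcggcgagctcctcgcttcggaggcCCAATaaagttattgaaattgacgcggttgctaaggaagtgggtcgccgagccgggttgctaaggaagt
Kif1c: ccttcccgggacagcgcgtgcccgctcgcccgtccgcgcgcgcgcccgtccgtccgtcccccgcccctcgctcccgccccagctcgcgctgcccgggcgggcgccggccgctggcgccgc

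Counting the first base before the start as -1, the hexamer stood at -19 in Kif11, at -19 in Kif15 and at -17 in Kif22 by its first base on the gene's strand. Kif11 and Kif22 also held a reversed CCAAT, at -45 and -54. Neither transport promoter held the hexamer in its window, and Kif3b held a CCAAT at -69. Searched on both strands over the whole window, TTTGAA was found in 9 of 10 tested mitotic kinesins (all but Kif18a), in 0 of 7 transport and 0 of 2 other tested kinesins, and in 17.9% of all 32851 promoter windows. Over all members with a window, tested or not, it was found in 9 of 11 mitotic, 1 of 10 transport and 2 of 10 other kinesins. The untested members that held it were the transport kinesin Kif1a, at -44 in 1 of its windows, and Kif26b and Kif27 of the others, at -9 in Kif26b and 3 times in Kif27. Within 25 bases of the start, a distance chosen after the matches were seen, it was found in 7 of the 10 tested mitotic kinesins, in the untested Kif26b and in 2.65% of all windows. In Kif23, Kif18b, Kif20b and Kif4 it lay just past the start, and in Kif14 and Kif2c at -228 and -103. CCAAT was found in 6 of 10 tested mitotic and 3 of 7 tested transport kinesins and in 37.4% of all windows. The hexamer and CCAAT occurred together in 6 of 10 tested mitotic and 0 of 7 tested transport kinesins and in 6.95% of all windows. The E2F core GCGGGAA was found in 0 of 11 mitotic and 0 of 10 transport kinesins with a window, in 2 of 10 others (Kif2a and the untested Kif6) and in 4.6% of all windows. No match of one motif overlapped a match of another in the members' windows. A match is a run of letters, not a shown binding site, and nothing follows about the factors.

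**Figure D2:**
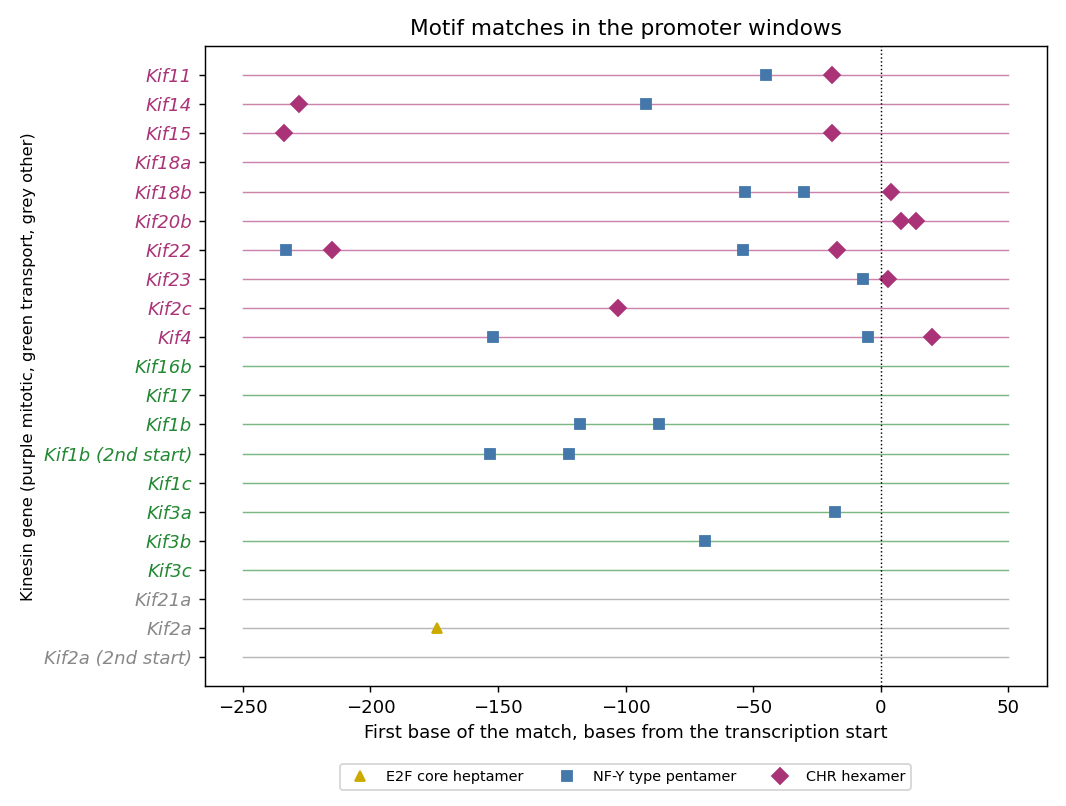
Positions of motif matches in the promoter windows of the 19 tested kinesin genes with a RefSeq window, as the first base of the match relative to the transcription start (dotted line). Diamonds (the CHR hexamer TTTGAA) occur on 9 of the 10 mitotic lines (purple) and on none of the lines of tested transport (green) or other (grey) kinesins.

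Transport kinesins did not pass the test in either direction. Of the 10 tested, 0 fell and 0 rose by limma, 1 was lower at an unadjusted p under 0.05 (Kif17), and voom on recovered reads called 0. Over all genes tested, 4.64% fell and 4.6% rose by limma, and 11.8% were lower at that unadjusted p. By voom 9.53% were called lower and 4.77% higher. Counts this low in 10 genes therefore do not set the transport kinesins apart from other genes. The 95% intervals of their log2 fold changes lay between -0.33 (Kif17) and 0.23 (Kif5a). Those of the 7 mitotic kinesins that fell, a set picked by the same test, ended at -0.36 (Kif15) or lower. The intervals of Kif14, Kif18a, Kif18b and Kif22, the tested mitotic kinesins that missed the threshold, ended between -0.15 (Kif22) and -0.11 (Kif18a). These 95% intervals thus ran into the span of the transport kinesins. The intervals of the transport kinesins leave room for small differences in each of these genes.

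Kif5b, the heavy chain of conventional kinesin in most cell types and a carrier of lysosomes and mitochondria, was the most abundant member. It stood at 39.3, 38.5 and 40.8 FPKM in the controls and 34.0, 36.4 and 39.5 FPKM under Fbxw11, with Fbxw11 library 3 inside the control range. Its log2 fold change was -0.11 (95% interval -0.25 to 0.03, limma adjusted p = 0.303), and it made up 22.7% ± 0.567 of the summed kinesin FPKM in control and 24.3% ± 1.56 in Fbxw11 libraries (SD, n = 3). Its paralogs best known from neurons had lower levels. Kif5a stood at 2.29 ± 0.352 and 2.32 ± 0.141 FPKM, and Kif5c had between 3 and 15 reads per library.

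The kinesin that pairs Kif3a with Kif3b, or Kif3a with Kif3c, serves ciliary and vesicle transport with its adaptor Kifap3. Kif3a stood at 14.2 ± 0.446 FPKM in the controls and 14.6 ± 0.506 FPKM under Fbxw11 (95% interval of the log2 fold change -0.07 to 0.13), a sign that turned on the TPM scale and over plain read sums. Kif3b stood at 8.96 ± 0.515 and 8.71 ± 0.190 FPKM (interval -0.15 to 0.08). Kif3c stood at 7.73 ± 0.113 and 7.502 ± 0.253 FPKM (interval -0.13 to 0.06), with 40.7% of its exon bases shared with the antisense genes 1110002L01Rik (2.35 ± 0.225 and 2.27 ± 0.160 FPKM) and Gm48512 (0 reads). In each library Kif3a was above Kif3b, and Kif3b above Kif3c. Kifap3, a non-member, stood at 14.8 ± 0.594 and 14.3 ± 0.376 FPKM, near the level of Kif3a.

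Kif1c, a motor known for podosome turnover in macrophages, stood at 14.7, 13.7 and 14.8 FPKM in the controls and 15.1, 13.7 and 13.4 FPKM under Fbxw11. The groups overlapped (log2 fold change -0.03, 95% interval -0.16 to 0.10). Kif1b, which carries mitochondria and lysosomes, stood at 3.11 ± 0.211 and 2.97 ± 0.0354 FPKM. Kif16b, a motor of early endosomes, stood at 4.51, 3.92 and 4.19 FPKM in the controls and 4.003, 3.67 and 3.74 FPKM under Fbxw11, with control library 2 inside the Fbxw11 range (interval of the log2 fold change -0.26 to 0.03). Kif13b stood at 2.16 ± 0.0844 and 2.22 ± 0.107 FPKM, with a sign that turned on the TPM scale.

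Kif17, a homodimeric motor known from dendrites and cilia, was the 1 tested transport member whose groups did not overlap. Over all genes tested, 15.5% lay lower without overlap. It stood at 1.62, 1.54 and 1.54 FPKM in the controls and 1.37, 1.20 and 1.29 FPKM under Fbxw11 (18.0% lower, log2 fold change -0.17, SE 0.0673, limma adjusted p = 0.186). Between 98 and 136 reads per library lay behind it, fewer than behind any other tested member. Kif13a, a motor of recycling endosomes, had between 7 and 17 reads per library. Kif1a, a motor of synaptic vesicle precursors, had at most 2. Differences in these genes were not detectable at this depth.

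**Figure D3:**
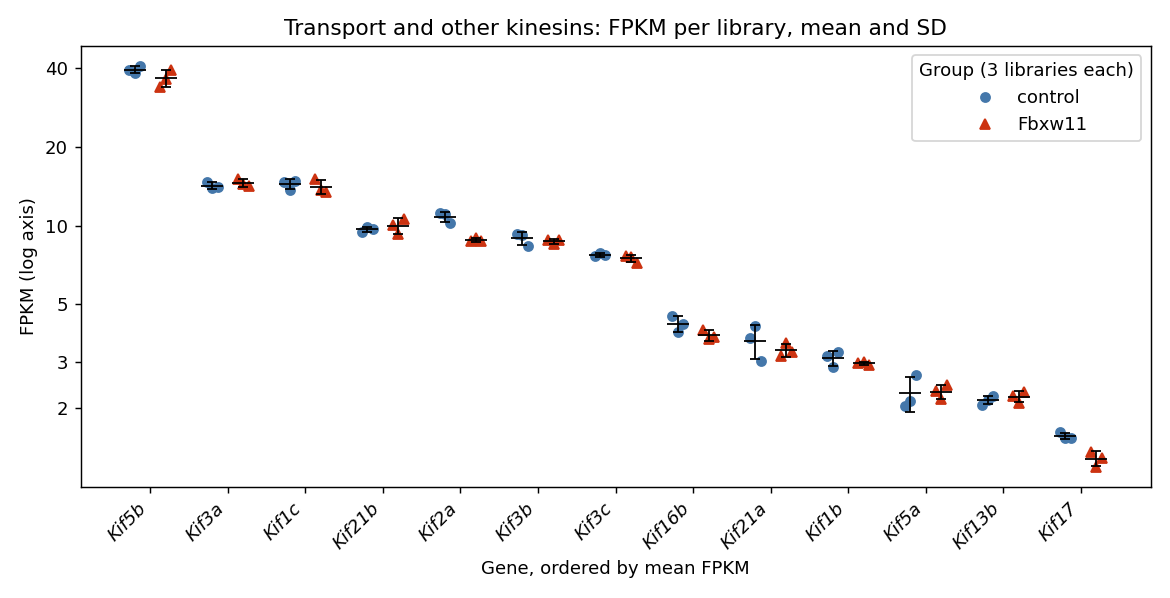
FPKM of the 10 tested transport kinesins and the 3 other tested kinesins (Kif21b, Kif2a and Kif21a) on a log axis, in each of 3 control (circles) and 3 Fbxw11 (triangles) libraries, with the mean and SD in black. The groups overlap for 11 of the 13 genes, and Kif2a (10.8 and 8.81 FPKM) and Kif17 (1.57 and 1.29 FPKM) are those whose Fbxw11 libraries all lie lower. Over all genes tested, 15.5% lie lower and 15.6% higher without overlap.

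Among the other kinesins, Kif2a fell. It encodes a depolymerase closely related to Kif2c that works both at spindle poles and in neurons. Its values were 11.1, 11.03 and 10.3 FPKM in the controls and 8.72, 8.96 and 8.77 FPKM under Fbxw11, without overlap. The mean was 18.5% lower (log2 fold change -0.27, SE 0.0429, 95% interval -0.37 to -0.16, limma adjusted p = 0.0137), and the ratio of means was 0.815, against at most 0.718 in the tested mitotic kinesins. The call was lost when control library 1, control library 2 or Fbxw11 library 1 was left out (limma adjusted p = 0.0586, 0.0685 and 0.0514). Dimt1 on the opposite strand overlaps 19.2% of its exon bases and stood at 5.61 ± 0.406 and 5.02 ± 0.342 FPKM (SD, n = 3).

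Kif21a and Kif21b pause microtubule growth. Kif21b stood at 9.48, 9.88 and 9.71 FPKM in the controls and 10.1, 9.29 and 10.6 FPKM under Fbxw11, with overlapping groups (log2 fold change 0.04, 95% interval -0.09 to 0.17). Kif21a stood at 3.73, 4.12 and 3.04 FPKM in the controls and 3.18, 3.56 and 3.28 FPKM under Fbxw11, also overlapping (interval -0.31 to 0.14). Below the filter, Kif24, which takes apart microtubules at the mother centriole, stood at 1.15, 0.961 and 1.22 FPKM in the controls and 0.766, 0.832 and 0.732 FPKM under Fbxw11. Its groups did not overlap, and with no filter on low values it did not pass (log2 fold change -0.25, SE 0.0825, limma adjusted p = 0.272). Kif7, of Hedgehog signalling in cilia, stood at 0.779 ± 0.103 and 0.726 ± 0.108 FPKM, Kif9 at 0.403 ± 0.0910 and 0.424 ± 0.0292 FPKM and Kif26a at 0.249 ± 0.0667 and 0.218 ± 0.0193 FPKM (SD, n = 3). Kif19a, Kif26b, Kif19b, Kif12 and Kif27 had at most 6 reads in a library, and Kif28 and Kif6 had 0 reads in every library. In all, 15 members were under the filter, 11 of the others, 3 transport kinesins and Kif2b.

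**Figure D4:**
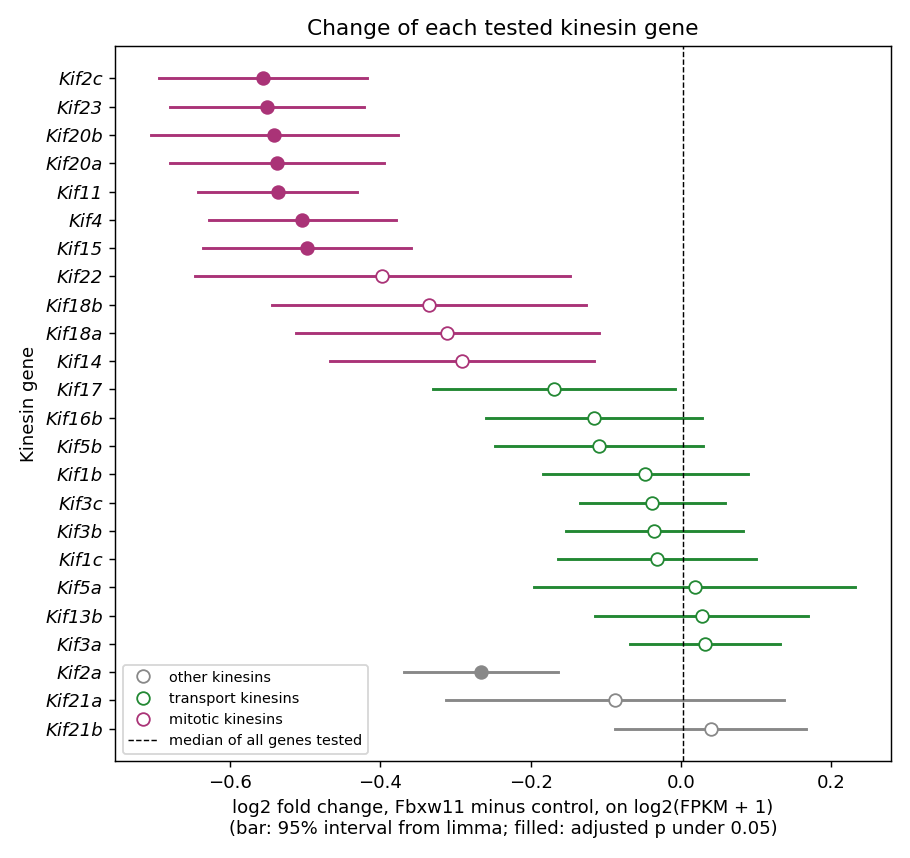
Log2 fold change (Fbxw11 minus control, on log2(FPKM + 1)) of the 24 tested kinesin genes with its 95% limma interval, by role, with filled points for an adjusted p under 0.05. The filled points are 7 mitotic kinesins between -0.56 and -0.50 and Kif2a at -0.27, and the transport kinesins lie between -0.17 (Kif17) and 0.03 (Kif3a), around the dashed median of all genes tested.

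By level in the control libraries, Kif5b, Kif1c, Kif3a, Kif2a and Kif21b led, none of them from the mitotic group, and Kif11 came next. In the control order of the 24 tested members, the ranges of 14 of 23 neighbouring pairs overlapped, so most neighbours do not differ beyond their spread. Kif5b was clear of Kif1c, the next below it, and Kif1c and Kif3a overlapped. Summed over members, FPKM of the mitotic kinesins was 49.1, 48.8 and 48.9 in control and 31.8, 31.2 and 32.4 in Fbxw11 libraries, 35.002% lower. For the transport kinesins it was 99.2, 96.0 and 99.7 in control and 93.8, 92.9 and 96.1 in Fbxw11 libraries, with Fbxw11 library 3 inside the control range. The mitotic share of summed kinesin FPKM was 28.1% ± 0.173 in control and 21.1% ± 0.0747 in Fbxw11 libraries (SD, n = 3), and the mitotic sum divided by the transport sum was 0.498 ± 0.00954 and 0.337 ± 0.00161. The latter is a ratio within a library and does not depend on how libraries are scaled to each other.

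Cell cycle genes were lower in the same libraries as the mitotic kinesins. Of 22 proliferation genes that are no kinesins, such as Mki67, Top2a, Rrm2 and the Mcm helicase genes, 22 fell by limma, against 4.64% of all genes tested. The median log2 fold change of the 22 was -0.49. The replicative helicase gene Mcm6 fell from 57.6 ± 1.46 to 36.5 ± 0.269 FPKM (log2 fold change -0.64, limma adjusted p = 0.000377). Rrm2, which encodes a subunit of ribonucleotide reductase, had a log2 fold change of -0.71 and Mcm7 one of -0.54. The summed FPKM of the 22 was 523 to 543 in control and 365 to 374 in Fbxw11 libraries, 30.7% lower. Per 100 FPKM of these genes, the mitotic kinesins summed to 9.38, 9.14 and 8.99 FPKM in the controls and 8.51, 8.56 and 8.74 FPKM under Fbxw11, 6.18% lower and without overlap. The sum of the 22 is weighted towards its most abundant genes, Pcna (22.4% lower), Mcm3 (26.4%) and Mcm6 (36.6%). Single genes of the list were between 19.7% (Bub1b) and 41.3% (Mki67) lower. The 6.18% therefore depends on the genes listed and their weights, and does not measure a fall beyond that of proliferation genes. The part of proliferation in the kinesin result was not tested. In bulk libraries such as these, fewer cells in G2 and M phase and less RNA of these genes per cell cannot be told apart. The summed FPKM of macrophage markers was higher in the Fbxw11 libraries, a sum of which Lyz2 (2346 ± 70.9 and 2628 ± 39.2 FPKM) was the largest part. Of the 9 markers 5 rose (Adgre1, Itgam, Mpeg1, Fcgr1 and Lyz2) and 0 fell, against 4.6% and 4.64% of all genes tested. Without overlap 7 lay higher and 1 lower, against 15.6% and 15.5% of all genes tested. The lower marker was Csf1r (153.8 ± 4.32 and 147.0 ± 2.43 FPKM, log2 fold change -0.07, limma adjusted p = 0.290). Adgre1 stood at 55.0 ± 1.33 and 80.4 ± 2.34 FPKM. The part of these markers in the kinesin result was not tested either.

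Partners of the mitotic kinesins lay lower as well. Of 13 tested partners, genes whose proteins bind, recruit or regulate these motors, 11 fell and 0 rose, against 4.64% and 4.6% of all genes tested. The median log2 fold change of the partners was -0.43. The spindle assembly factor Tpx2, which targets Kif11 and Kif15, fell from 24.8 ± 0.352 to 18.3 ± 0.409 FPKM (log2 fold change -0.42, limma adjusted p = 0.00134). Hmmr, a spindle protein, fell from 6.92 ± 0.186 to 4.34 ± 0.145 FPKM (log2 fold change -0.57, limma adjusted p = 0.00126). Cdca8, of the chromosomal passenger complex that Kif20a carries, fell from 9.63 ± 0.0246 to 6.82 ± 0.386 FPKM (log2 fold change -0.44, limma adjusted p = 0.00346). The partners that did not pass were Aurkb (4.40 ± 0.324 and 3.40 ± 0.556 FPKM) and Plk1 (4.09 ± 0.490 and 2.92 ± 0.329 FPKM). Both were lower in every Fbxw11 library than in any control.

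**Figure D5:**
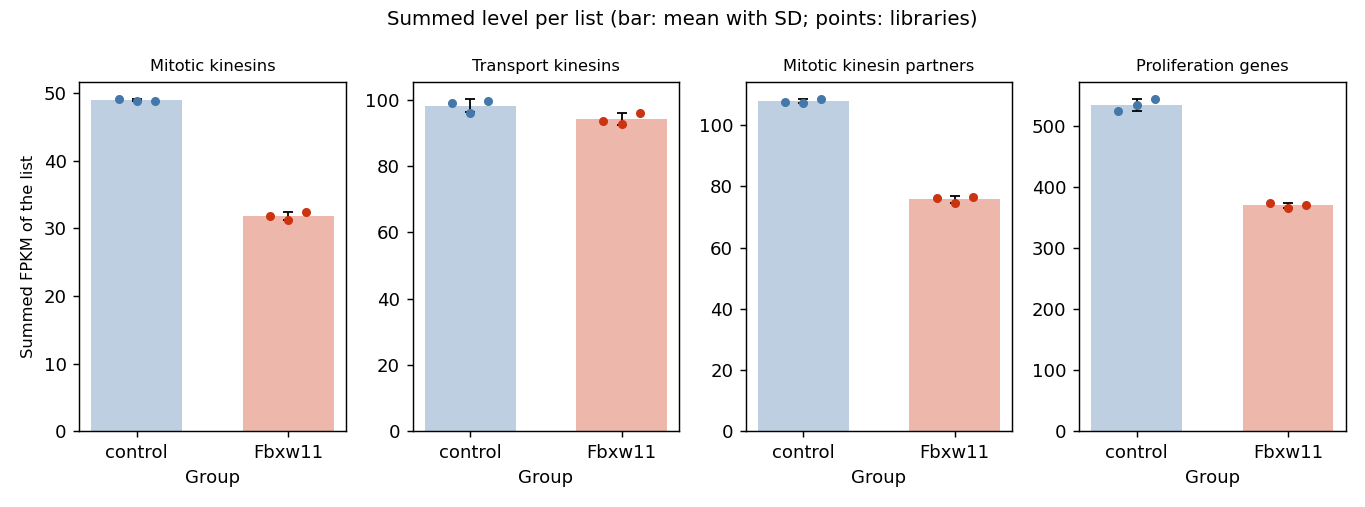
Summed FPKM of the mitotic kinesins, the transport kinesins, the mitotic kinesin partners and the proliferation genes in each library (points), with bars for the mean and error bars for the SD over 3 libraries, each axis starting at 0. The mitotic kinesins, their partners and the proliferation genes are 35.002%, 29.7% and 30.7% lower in the Fbxw11 libraries, and the transport kinesins 4.09%.

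Of 3 tested kinesins outside the name rule, 2 fell and 0 rose, against 4.64% and 4.6% of all genes tested. Cenpe, the motor that carries chromosomes to the spindle equator, fell from 10.8 ± 0.265 to 6.97 ± 0.0902 FPKM (log2 fold change -0.57, limma adjusted p = 0.000814). Kifc1, a minus-end motor that focuses spindle poles, fell from 3.08 ± 0.419 to 2.16 ± 0.105 FPKM (log2 fold change -0.36, limma adjusted p = 0.0458). Its close copy Kifc5b stood at 1.75 ± 0.111 and 1.41 ± 0.242 FPKM (limma adjusted p = 0.258). The treatment of reads that fit both copies was not known, so the separate values of Kifc1 and Kifc5b are uncertain. Another 3 such kinesins were under the filter and not tested. Kifc3 stood at 1.10 ± 0.130 and 0.726 ± 0.0517 FPKM, 34.3% lower and without overlap, on 58 to 106 reads per library. Stard9 stood at 0.837 ± 0.0585 and 0.838 ± 0.0313 FPKM, and Kifc2 had at most 7 reads in a library.

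Genes that serve the transport kinesins did not pass the test. Of 19 tested light chains and cargo adaptors 0 fell and 0 rose by limma, with Trak2 lower and Spag9 and Plekhm2 higher at an unadjusted p under 0.05. Over all genes tested, 4.64% fell and 4.6% rose by limma, and 11.8% were lower and 12.8% higher at that unadjusted p. On recovered reads voom called 1 lower, the mitochondrial adaptor Trak2, against 9.53% of all genes. The median log2 fold change of the adaptors was -0.00. Their smallest adjusted p was that of Spag9, a scaffold that links kinesin to vesicles, at 16.5 ± 0.373 and 18.3 ± 0.374 FPKM (limma adjusted p = 0.0543). Arl8b, the small GTPase that recruits kinesin to lysosomes, was the most abundant adaptor at 56.0 ± 0.409 and 55.2 ± 2.98 FPKM. Of 21 tested subunits and regulators of dynein and dynactin, which move cargo the other way, 0 fell and 0 rose by limma. Nde1 was lower and Ndel1 higher at an unadjusted p under 0.05, with 0 calls by voom. At the limma shares of all genes, lists of 19 and 21 genes would hold few calls, so 0 calls do not set them apart. The most abundant of the dynein and dynactin genes was the light chain gene Dynlrb1, at 67.3 ± 4.87 and 64.9 ± 4.34 FPKM. The dynein heavy chain gene Dync1h1 stood at 33.0 ± 1.06 FPKM in the controls and 33.6 ± 0.842 FPKM under Fbxw11.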

How the data were processed

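The authors deposited 1 table of FPKM for 6 libraries, with gene names, biotypes and lengths. Per the submitters' processing notes, reads were placed on mm10. No source used here names the aligner, the counter, the annotation release or the strand setting. The table's own coordinates equal those of GENCODE M21 for 2.76% of 52036 gene identifiers, so positions printed are GENCODE's (GRCm38), matched by identifier. FPKM times gene length was a whole multiple of 1 step per library (100% of values within 0.02 reads), which gave reads per gene. The authors' library size was 1.014 to 1.018 times the read sum for the controls and 0.987 to 0.993 for Fbxw11, which raises FPKM in the latter. limma 3.58.1 (R 4.3.3; lmFit, eBayes with trend, two-sided, pseudocount 1) was run on the 10898 genes whose mean reached 1 FPKM. The procedure was tested on simulated data. Results were recomputed under 14 alternatives. Limits from a count of 0 reads (3 reads) cover counting error only. All members above the filter are named with values, the rest by range, and in each related list up to 3 members that passed, by smallest p, or the most abundant. Other genes named in those lists were chosen for their role or after their values were seen. Members and lists were chosen with earlier results of these data known. The planned edgeR and DESeq2 fits were not run, as the table holds no counts, and limma's voom on recovered reads, added after seeing the data, took their place.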

Additional observations from a re-analysis of the deposited data

Results flagged for a closer look

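Kif16bos, a long noncoding RNA gene that is no member because it is not protein-coding, had 0 reads in the 3 control libraries and in Fbxw11 library 1, 2 reads in Fbxw11 library 2 and 4 reads in Fbxw11 library 3. It drew attention under a rule that flags counts above 3 reads, the limit used for a count of 0. That limit bounds the expected count, so 4 reads in 1 library need not exceed counting error. The difference was not tested. The pseudogenes Kif22-ps and Kif4-ps had 0 reads in every library.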

How the results depend on the processing

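The 7 mitotic kinesins that fell passed in all alternatives that tested them, and 0 kinesins rose in any. With a filter at a mean of 5 FPKM only 8 members were tested and 2 fell, 1 of them mitotic, because fewer genes entered. Kif11 was then the 1 mitotic kinesin tested, so its log2 fold change of -0.54 takes the place of a median. On recovered reads voom called 11 mitotic kinesins. Without 1 library, Kif falls ranged from 7 to 8, other-kinesin falls from 0 to 1, the mitotic median from -0.54 to -0.50 and the other-kinesin median from -0.183 to -0.0122. The mitotic median was -0.60 with a pseudocount of 0.1, -0.63 on the TPM scale, -0.53 over plain read sums, -0.53 without both libraries numbered 3 and -0.64 by voom. The transport median was -0.0815 on the TPM scale, -0.0699 over plain sums and -0.0798 by voom, and the other-kinesin median -0.14 on the TPM scale, -0.17 without both libraries numbered 3 and -0.15 by voom. Sign changes were seen only in members that did not pass. On the TPM scale Kif3a was at -0.009145, Kif5a at -0.01359 and Kif13b at -0.003099, over plain sums Kif3a at -0.003088 and Kif5a at -0.007639, and by voom Kif3a at -0.002812 and Kif5a at -0.007122. Kif1c was at 0.0202 without both libraries numbered 3, and leaving out 1 library moved Kif21b between -0.001052 and 0.0872 and Kif5a between -0.0345 and 0.1045. The cause of these shifts was not tested. The planned edgeR and DESeq2 alternatives were not run.

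Same-numbered libraries were not shown to be pairs (correlations of their deviations 0.0361, 0.0405 and 0.189), and not every library correlated best with its own number. With the replicate block 8 Kif genes and 7 mitotic kinesins still fell, while over all genes the falls went from 506 to 318 and the rises from 501 to 303. Over all genes there were also 307 falls and 289 rises with no filter on low values, 335 falls without both libraries numbered 3, 1039 falls and 520 rises by voom, and 220 to 383 falls and 190 to 418 rises without 1 library, fewest without control library 2. Members under the filter had at most 166 reads per library (Kif24, 100 to 166), a range that overlaps that of Kif17 (98 to 136), which passed it. The effect of depth on the calls was not tested.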

Other observations

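Among genes of the microtubule track, falls and 1 rise passed the test. Of 18 tested tubulin and microtubule-binding genes 4 fell and 1 rose by limma, against 4.64% and 4.6% of all genes tested. The 1 rise is thus near the share of all genes. The median log2 fold change of the 18 was -0.09. Stmn1, which binds free tubulin and takes microtubules apart, fell from 25.5 ± 1.14 to 15.8 ± 0.214 FPKM (log2 fold change -0.66, limma adjusted p = 0.000724). Tubb5, the most abundant member of this list, fell from 153 ± 0.602 to 117 ± 3.71 FPKM (log2 fold change -0.39, limma adjusted p = 0.00173). Ckap5, a microtubule polymerase, fell from 17.1 ± 0.347 to 14.1 ± 0.685 FPKM (log2 fold change -0.26, limma adjusted p = 0.0156). Tubg1, the gamma-tubulin gene, also fell. The gene that rose was Mapre2, of the end-binding family, from 11.7 ± 0.499 to 13.7 ± 0.1702 FPKM (log2 fold change 0.21, limma adjusted p = 0.0258). Tubg1 and Mapre2 were named after their values were seen, as so few genes passed. Tuba1a stood at 22.4 ± 2.90 and 22.3 ± 2.12 FPKM, and tubulin genes are close copies of one another, so their separate values are uncertain.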
